A study of Mus musculus with 12 samples.

Results

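The Notch receptors, their ligands and their nuclear targets were followed as a group of 10 genes, Notch1, Notch2, Notch3, Notch4, Jag1, Jag2, Dll1, Rbpj, Hes1 and Hey1, taken by symbol from the 34513 genes of the deposited count table. Each symbol matched 1 row. The cells were 3 mouse lines in culture: Melan-A (MelanA in the labels), a nontumorigenic line, and the melanoma lines B16F0 and B16F10. For every line there were untreated libraries and libraries of cells given SX-682, an inhibitor of the chemokine receptors CXCR1 and CXCR2, which gave 6 groups of 2 libraries. The labels give the controls as not treated, and the dose and duration of SX-682 for these RNA samples are not given in the sources used here. Nothing in the labels says that the libraries of a group came from separate cultures, so the p-values below measure the spread between libraries, which may be technical. Each line stands for itself alone, and a difference between Melan-A and a B16 line is a difference between cell lines.

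Notch signaling passes between touching cells. A ligand of the Jagged or Delta-like family on a neighboring cell binds a NOTCH receptor, the receptor is cut by ADAM proteases and then by gamma-secretase, and its intracellular part enters the nucleus. There it joins the DNA-binding protein RBPJ and the coactivator Mastermind and switches on genes of the HES and HEY repressor families. In the melanocyte lineage, Notch signaling through RBPJ and HES1 is known to keep melanoblasts and melanocyte stem cells alive in the hair follicle, and NOTCH1 has been studied as a driver of melanoma growth.

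Gene counts summed to 48876982 in the shallowest library and to 85322092 in the deepest. Levels are given as CPM, counts scaled to library size, after TMM scaling, which sets the bulk of genes equal between libraries, and 1 count in a library was worth 0.011 to 0.0208 CPM. A floor of 3 counts, or 0.033 to 0.0623 CPM, marks the lowest level read as present and allows for counting error alone. The lineage genes Sox10, Mitf, Dct, Tyrp1 and Mlana were present in all 12 libraries, and 8 such genes summed to 1344 to 1374 CPM in untreated Melan-A, 18584 to 18668 CPM in untreated B16F0 and 24442 to 24471 CPM in untreated B16F10, and to 1347 to 1355, 15772 to 15961 and 14947 to 15188 CPM with SX-682. Tyr, which encodes the key enzyme of pigment synthesis, was at only 69 to 77 counts in the untreated Melan-A libraries and 19 to 22 with SX-682. Pmel had a mean of 8.11 CPM in untreated Melan-A, against 4512 CPM in B16F0 and 5337 CPM in B16F10. Kit had 4 to 11 counts in the untreated Melan-A libraries, 293 to 315 in those of B16F0 and 0 in both of B16F10. The summed level of 5 fibroblast genes (Col1a1, Col1a2, Pdgfra, Dcn and Lum) was 60.6 to 60.9 CPM in untreated Melan-A, 15.9 to 16.6 CPM in untreated B16F0 and 8.42 to 9.72 CPM in untreated B16F10, and with SX-682 it was 52.9 to 53.4, 16.2 to 16.7 and 8.49 to 9.13 CPM. For 6 keratinocyte genes the sum was 3.84 to 6.59 CPM in the Melan-A libraries and at most 0.759 CPM in the B16 libraries. Of 5 endothelial genes 4 stayed under 1 CPM everywhere, and of 5 leukocyte genes 4 did, the other being Lyz2. The part of these markers in the differences between lines, or in the changes with SX-682, was not tested.

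Differences were tested in 18338 genes, among them all 10 members, with edgeR's quasi-likelihood F-test on the 12 libraries together, and p-values were adjusted by the Benjamini-Hochberg method over all genes tested ("edgeR adjusted p" below, threshold 0.05). An exact permutation test of 2 libraries against 2 cannot go under a two-sided p of 0.333, so the tests rest on a spread shared across genes and groups. The biological coefficient of variation was 2.78%, which lets small changes pass.

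The untreated lines were compared first, to see which receptors and ligands each line expressed. In a bulk culture, fewer cells that express a gene and less RNA per cell cannot be told apart. Of the 10 members, 7 differed between untreated B16F0 and Melan-A (2 higher and 5 lower in B16F0), where 75.9% of all genes tested did (35.3% higher and 40.6% lower). Between untreated B16F10 and Melan-A, 8 differed (1 higher and 7 lower in B16F10), against 74.2% of all genes (33.4% higher and 40.8% lower), and between untreated B16F10 and B16F0, 7 differed (4 higher and 3 lower in B16F10), against 62.0% (30.8% higher and 31.2% lower). These shares are near the background. The median log2 difference of the members was -0.39 for B16F0 against Melan-A, where that of all genes was -0.06, and -1.10 for B16F10 against Melan-A, where that of all genes was -0.10. These comparisons share their untreated libraries.

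Notch1 (chromosome 2, 26457903 to 26516663, - strand; coordinates are on GRCm38) was higher in both B16 lines than in Melan-A. Its CPM was 3.07 and 2.95 in the untreated Melan-A libraries, 36.7 and 37.8 in B16F0, and 44.9 and 42.0 in B16F10. The groups did not overlap. The log2 difference was 3.63 for B16F0 minus Melan-A (SE 0.069, edgeR adjusted p = 6.9e-28) and 3.85 for B16F10 minus Melan-A (SE 0.069, edgeR adjusted p = 1.4e-28), a 12.4-fold and a 14.4-fold higher level. B16F10 stood 0.22 on the log2 scale above B16F0 (SE 0.051, edgeR adjusted p = 0.00033).

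Notch3, on chromosome 17 from 32120820 to 32166852 on the - strand, went the other way. It is the receptor best known from the smooth muscle and pericytes of small vessels. Its CPM was 111 and 114 in untreated Melan-A, 3.50 and 3.03 in B16F0, and 16.01 and 15.6 in B16F10. All 3 lines were thus apart, with Melan-A highest and B16F0 lowest. The level in B16F0 was 34.3-fold lower than in Melan-A (log2 difference -5.10, SE 0.057, edgeR adjusted p = 8.9e-34), that in B16F10 was 7.10-fold lower (log2 difference -2.83, SE 0.045, edgeR adjusted p = 7.8e-30), and B16F10 stood 4.82-fold above B16F0 (log2 difference 2.27, SE 0.071, edgeR adjusted p = 5.7e-22). Of the 5 fibroblast genes given above, Col1a1, Dcn and Lum were also highest in untreated Melan-A, whereas Col1a2 was lowest there and Pdgfra was highest in B16F0. Their part in this difference was not tested.

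Notch2, on chromosome 3 from 98013527 to 98150361 on the + strand, was well expressed in every line. The untreated libraries held 185 and 183 CPM in Melan-A, 46.0 and 46.1 CPM in B16F0, and 68.1 and 67.6 CPM in B16F10. The order was Melan-A, B16F10, B16F0, and each step exceeded the replicate spread, with log2 differences of -2.00 for B16F0 minus Melan-A, -1.44 for B16F10 minus Melan-A and 0.56 for B16F10 minus B16F0 (edgeR adjusted p = 1.50e-29, 3.15e-26 and 1.13e-14).

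Notch4, the receptor otherwise typical of endothelium, on chromosome 17 from 34564268 to 34588503 on the + strand, was low in all lines. Its CPM was 1.59 and 1.46 in untreated Melan-A, 1.60 and 2.44 in B16F0, and 0.777 and 0.516 in B16F10. B16F10 was lower than Melan-A (log2 difference -1.24, SE 0.28, edgeR adjusted p = 0.00024) and lower than B16F0 (-1.64, SE 0.28, edgeR adjusted p = 6.6e-06), while Melan-A and B16F0 were not told apart (0.40 on the log2 scale for B16F0 minus Melan-A, 95% interval -0.09 to 0.89, edgeR adjusted p = 0.133). Without the first untreated B16F0 library that difference was 0.68 and passed (edgeR adjusted p = 0.028).

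Because the genes differ in length, receptor levels were compared with each other as CPM per kilobase of exonic length. The receptor RNA of untreated Melan-A was made up of Notch2, with 54.4% ± 0.56 (SD, n = 2) of the sum over the 4 receptors, and Notch3, with 44.3% ± 0.61 (SD, n = 2). Notch1 was at 0.675% ± 0.021 (SD, n = 2) of that sum. In untreated B16F0, Notch2 held 56.7% ± 0.64 (SD, n = 2) and Notch1 34.7% ± 0.31 (SD, n = 2), with Notch3 at 5.36% ± 0.60 (SD, n = 2). In untreated B16F10 the shares were 55.3% ± 0.84 (SD, n = 2) for Notch2, 26.8% ± 0.71 (SD, n = 2) for Notch1 and 17.2% ± 0.057 (SD, n = 2) for Notch3. Notch2 was therefore the leading receptor RNA of every untreated line, and the receptor in second place was Notch3 in Melan-A and Notch1 in both B16 lines. The sum over the 4 receptors was 31.3 ± 0.082 CPM per kilobase (SD, n = 2) in untreated Melan-A, 7.54 ± 0.091 in B16F0 and 11.4 ± 0.23 in B16F10.

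**Figure D1:**
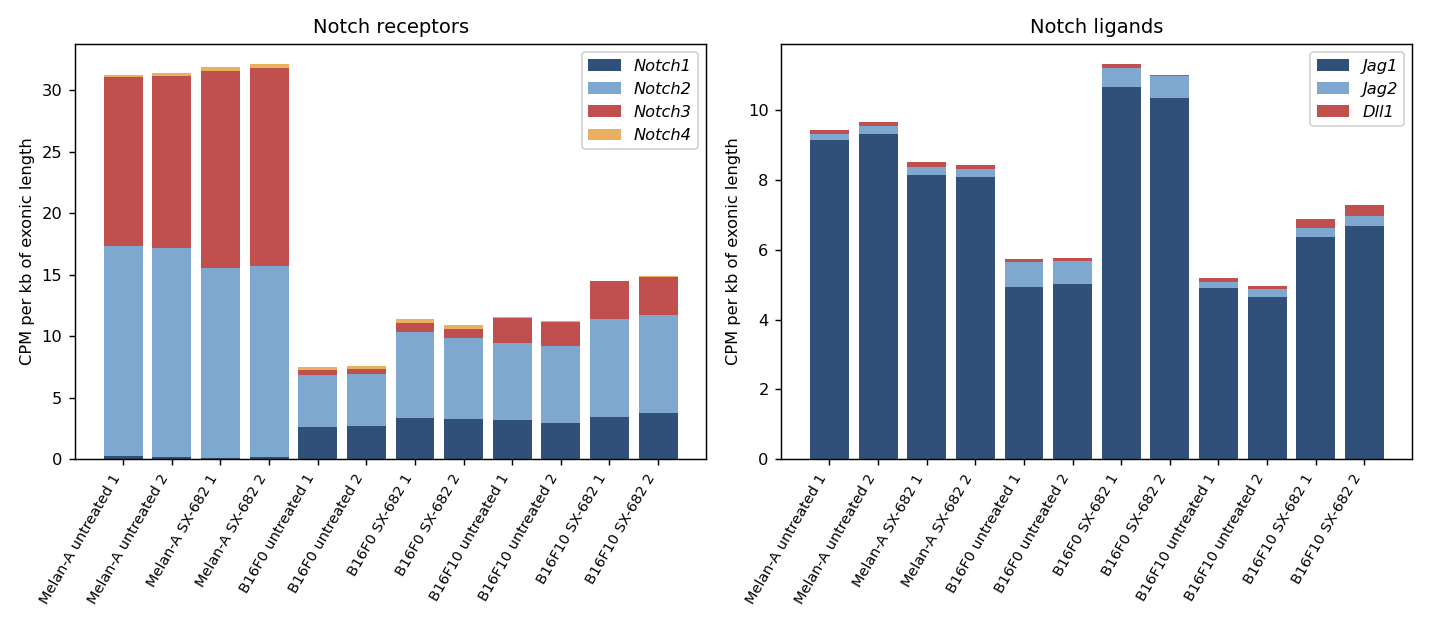
Stacked levels of the 4 receptor genes (left) and the 3 ligand genes (right) in CPM per kilobase of exonic length (vertical axis, linear from 0), with 1 bar for each of the 12 libraries. Notch3 fills a large part of the Melan-A receptor bars and a small part of the B16F0 bars, Notch1 does the reverse, and Jag1 makes up most of every ligand bar.

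Among the ligands, Jag1, on chromosome 2 from 137081456 to 137116644 on the - strand, supplied most of the RNA in every group. In untreated libraries its CPM was 53.4 and 54.4 in Melan-A, 28.7 and 29.2 in B16F0, and 28.6 and 27.1 in B16F10, so that both B16 lines were lower than Melan-A (log2 differences -0.89 and -0.95, edgeR adjusted p = 1.7e-17 and 6.2e-18). The B16 lines were not told apart from each other, at -0.06 on the log2 scale for B16F10 minus B16F0 (95% interval -0.16 to 0.04, edgeR adjusted p = 0.311). With library totals in place of TMM scaling this difference was -0.15 and passed (edgeR adjusted p = 0.0067).

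Jag2, the other Jagged ligand, on chromosome 12 from 112907819 to 112929776 on the - strand, was highest in B16F0 among the untreated lines, with 5.06 and 4.65 CPM there, 1.15 and 1.47 CPM in Melan-A and 1.27 and 1.49 CPM in B16F10. B16F0 stood 3.70-fold above Melan-A (log2 difference 1.89, SE 0.18, edgeR adjusted p = 1.8e-10), and B16F10 stood 3.51-fold below B16F0 (log2 difference -1.81, SE 0.19, edgeR adjusted p = 1.3e-09). Melan-A and B16F10 overlapped (0.07 on the log2 scale, 95% interval -0.35 to 0.50). Dll1, the Delta-like ligand on chromosome 17 from 15367354 to 15376872 on the - strand, had 24 to 45 counts in the untreated libraries, and none of the 3 differences between lines passed. As much as 20.5% of its exonic bases is shared with A930024N18Rik on the opposite strand, and the sources used here do not say whether the counting used strand. Jag1 made up 96.8% ± 0.22 (SD, n = 2) of the ligand sum per length in untreated Melan-A, 86.4% ± 0.79 (SD, n = 2) in B16F0 and 93.9% ± 0.53 (SD, n = 2) in B16F10.

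Hes1, on chromosome 16 from 30064384 to 30067796 on the + strand, encodes the basic helix-loop-helix repressor that serves as the standard readout of Notch activity. Its CPM was 37.3 and 38.2 in untreated Melan-A, 5.98 and 6.44 in B16F0, and 14.6 and 15.5 in B16F10. The lines were ordered Melan-A, B16F10, B16F0, with no overlap. B16F0 was 6.09-fold lower than Melan-A (log2 difference -2.61, SE 0.076, edgeR adjusted p = 3.35e-23), B16F10 was 2.51-fold lower (-1.33, SE 0.068, edgeR adjusted p = 6.3e-17), and B16F10 stood 2.43-fold above B16F0 (1.28, SE 0.083, edgeR adjusted p = 3.4e-14). Notch2 and Notch3 had the same order of the untreated lines as Hes1, whereas Notch1 was lowest in Melan-A. With 3 lines this is a description only.

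Rbpj, on chromosome 5 from 53466152 to 53657362 on the + strand, differed little between lines, as 73.2 and 72.4 CPM in untreated Melan-A, 58.2 and 56.4 CPM in B16F0, and 53.9 and 51.1 CPM in B16F10. Both B16 lines were lower than Melan-A (log2 differences -0.34 and -0.47, edgeR adjusted p = 6.2e-10 and 1.0e-12). The step of -0.13 from B16F0 to B16F10 passed (SE 0.038, edgeR adjusted p = 0.0040) but was lost without the first untreated B16F0 library (-0.10, edgeR adjusted p = 0.085) or the second untreated B16F10 library (-0.08, edgeR adjusted p = 0.161). The table also lists a processed pseudogene, Rbpj-ps3, and reads of Rbpj could be split with it.

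Hey1, on chromosome 3 from 8663359 to 8667256 on the - strand, is a second repressor of the family and was close to the floor. It had 21 and 6 counts in untreated Melan-A, 15 and 5 in B16F0, and 2 and 2 in B16F10. The replicates of Melan-A and of B16F0 were far apart, and those of B16F10 were under the floor. B16F10 was called lower than Melan-A (edgeR adjusted p = 0.044), but the call was lost with DESeq2 (adjusted p = 0.071) and in 8 of the 12 fits that left out 1 library, for example without the first untreated Melan-A library (edgeR adjusted p = 0.503) or the second untreated B16F10 library (0.152).

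**Figure D2:**
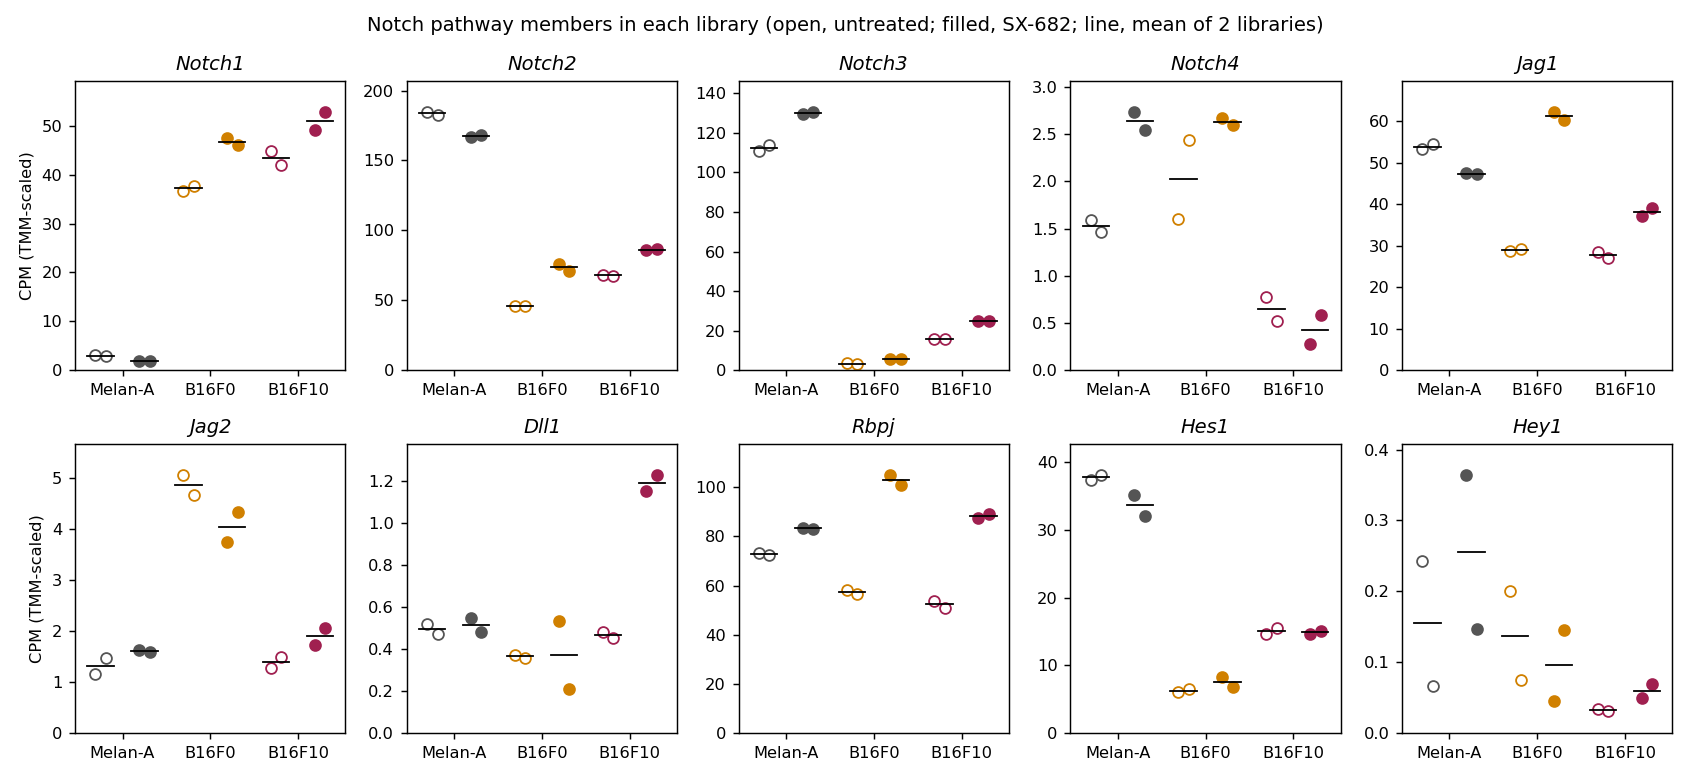
CPM after TMM scaling (vertical axis, linear from 0, its range set per gene) of each of the 10 genes in each library of Melan-A (gray), B16F0 (orange) and B16F10 (red). Open points are untreated libraries, filled points SX-682 libraries and bars the mean of 2 libraries, and the filled B16 points of Notch2, Notch3, Jag1 and Rbpj all lie above the open ones.

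The change with SX-682 was then taken within each line. In B16F0, 6 of the 10 members rose and 0 fell, where 50.1% of all genes tested changed (25.1% higher and 25.0% lower). In B16F10, 6 rose and 0 fell, where 50.8% of all genes changed (25.5% higher and 25.3% lower). In Melan-A, 3 rose and 4 fell, where 48.2% of all genes changed (23.4% higher and 24.7% lower). These shares include genes nearly absent from some lines. With at least 10 counts in every library, 12326 genes were tested. Of these, 8152 changed in Melan-A (4112 higher), 8410 in B16F0 (4213 higher) and 8738 in B16F10 (4276 higher). The median log2 fold change over the 10 members was 0.36 in B16F0, 0.45 in B16F10 and 0.12 in Melan-A, and the median over all genes tested was 0 in each. Rbpj and Notch3 rose in all 3 lines, a pattern that 11.3% of all genes tested had. Notch1, Notch2 and Jag1 fell in Melan-A and rose in both B16 lines, and Hes1 fell in Melan-A and rose in B16F0; 9.59% of all genes tested were higher in one line and lower in another. Each line has its own controls, so the 3 changes share no library.

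**Figure D3:**
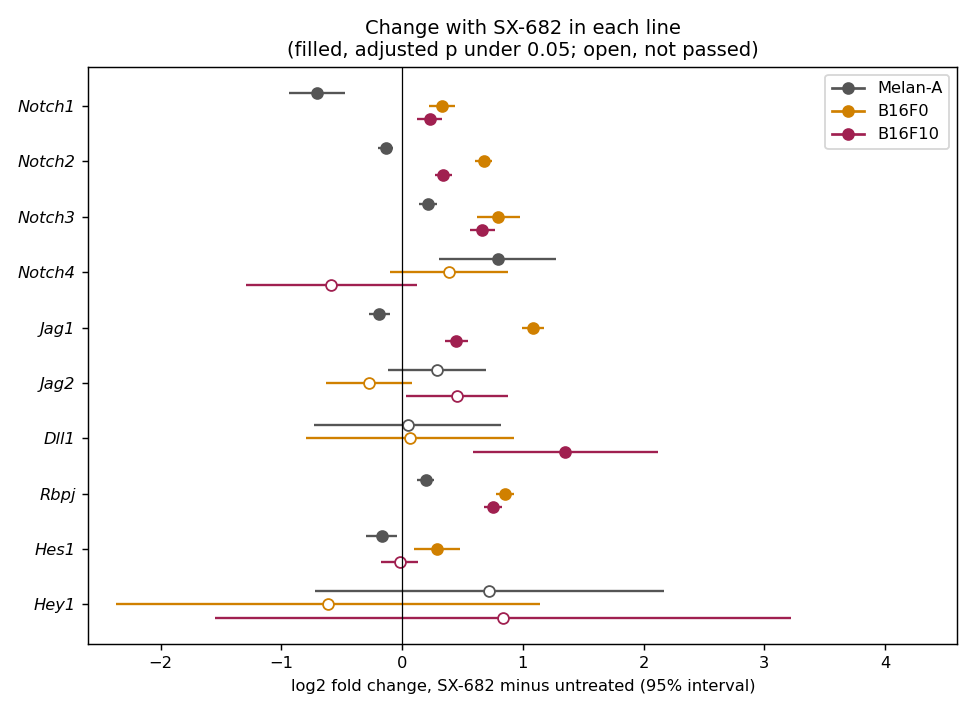
Log2 fold change of SX-682 against untreated libraries (horizontal axis) with its 95% interval for the 10 genes in Melan-A (gray), B16F0 (orange) and B16F10 (red); filled points have an edgeR adjusted p under 0.05. Rbpj and Notch3 lie to the right of 0 in all 3 lines, Notch1, Notch2 and Jag1 lie to the left in Melan-A and to the right in the B16 lines, and the wide intervals of Hey1 come from counts near the floor.

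Rbpj encodes the DNA-binding partner that all 4 receptors share. What its RNA level means for the output of the pathway was not tested. In B16F0 its CPM went from 58.2 and 56.4 to 105 and 101, in B16F10 from 53.9 and 51.1 to 87.4 and 89.1, and in Melan-A from 73.2 and 72.4 to 83.4 and 83.1. In every line both SX-682 libraries lay above both controls. The log2 fold changes were 0.19 in Melan-A (SE 0.035, edgeR adjusted p = 2.3e-05), 0.85 in B16F0 (SE 0.036, edgeR adjusted p = 3.9e-18) and 0.75 in B16F10 (SE 0.037, edgeR adjusted p = 9.2e-17). With SX-682 the B16 lines held 103 ± 2.8 CPM (SD, n = 2) and 88.2 ± 1.2 CPM (SD, n = 2), from untreated means below that of Melan-A.

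In B16F0, Notch3 went from 3.50 and 3.03 to 5.75 and 5.63 CPM, in B16F10 from 16.01 and 15.6 to 25.0 and 25.1 CPM, and in Melan-A from 111 and 114 to 130 and 131 CPM. No line had overlapping groups. The log2 fold change was 0.80 in B16F0 (SE 0.088, edgeR adjusted p = 5.5e-09), 0.66 in B16F10 (SE 0.051, edgeR adjusted p = 2.9e-12) and 0.21 in Melan-A (SE 0.036, edgeR adjusted p = 1.4e-05). The mean in B16F0 went from 3.27 to 5.69 CPM, beside 112 CPM in untreated Melan-A. By a rule chosen after the data were seen, 106 genes were taken as high in Melan-A and nearly absent from untreated B16F0. They had at least 20 CPM in each Melan-A library and at most 20 counts in each untreated B16F0 library. These genes held 0.0839% and 0.0833% of their Melan-A level in the B16F0 libraries with SX-682, against 0.0448% and 0.0489% in the controls. The rule capped the counts of the controls alone, so lower values in the controls are in part built into it. The part of such a signal in the values of Notch3 was not tested.

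The promoter windows of the genes whose change is described above and next are shown because Rbpj and Notch3 rose in every line, while Notch1 and Jag1 fell in Melan-A and rose in the B16 lines. They are the bases before the RefSeq start site on GRCm38.p6, 5′ to 3′ on the strand of the gene, less the stretches that GENCODE gives as exon. Capitals mark TGGGAA, the core of the sequence that RBPJ binds, searched on both strands. Rbpj is at chr5:53590096-53590213 (+) and Notch1 at chr2:26503825-26504072 (-), both in introns of the gene as GENCODE draws it, and Notch3 at chr17:32166891-32167140 (-) and Jag1 at chr2:137116645-137116770 (-), both upstream of the gene.
Rbpj: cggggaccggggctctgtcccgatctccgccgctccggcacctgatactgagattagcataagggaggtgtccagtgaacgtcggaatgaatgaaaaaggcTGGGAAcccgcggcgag
Notch3: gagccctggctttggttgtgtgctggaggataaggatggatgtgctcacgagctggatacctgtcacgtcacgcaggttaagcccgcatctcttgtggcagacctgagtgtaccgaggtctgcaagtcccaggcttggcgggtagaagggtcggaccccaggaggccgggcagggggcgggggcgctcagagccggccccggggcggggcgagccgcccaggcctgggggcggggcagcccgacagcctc
Notch1: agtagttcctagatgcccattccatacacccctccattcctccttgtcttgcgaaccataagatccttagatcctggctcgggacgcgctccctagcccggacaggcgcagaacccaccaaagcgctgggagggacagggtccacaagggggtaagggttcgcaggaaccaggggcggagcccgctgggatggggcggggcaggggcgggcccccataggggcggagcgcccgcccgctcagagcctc
Jag1: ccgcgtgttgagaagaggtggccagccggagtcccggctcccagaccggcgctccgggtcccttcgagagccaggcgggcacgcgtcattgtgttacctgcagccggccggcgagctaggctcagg
RefSeq windows were found for 8 of the 10 members, without Hes1 and Hey1. In the 250 bases before the start, Rbpj was the 1 member of those 8 with a match, at 149 bases (forward strand) and 65 bases (reverse strand) before its first start site. The latter lies in a stretch that GENCODE gives as exon and is not shown. A match was present in 21.6% of the 32851 windows of that length in the table, and at least 2 matches in 2.77%. The windows of Notch3, Notch1 and Jag1 hold no such letters, which says nothing of what binds there.

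Notch1 fell in Melan-A from 3.07 and 2.95 CPM to 1.82 and 1.86 CPM, on 265 and 268 counts before and 130 and 140 after. In B16F0 it went from 36.7 and 37.8 to 47.4 and 46.2 CPM, and in B16F10 from 44.9 and 42.0 to 49.2 and 52.8 CPM. The groups did not overlap in any line. The log2 fold change was -0.71 in Melan-A (SE 0.11, edgeR adjusted p = 4.3e-06), 0.33 in B16F0 (SE 0.051, edgeR adjusted p = 2.5e-06) and 0.23 in B16F10 (SE 0.051, edgeR adjusted p = 0.00028). Notch1 shares 7.5% of its exonic bases with 0610009E02Rik and 2.91% with Gm13568, both on the opposite strand. Of the other receptors, Notch2 shares 5.02% with Gm42820 on the same strand, and Notch3 6.03% with Gm17276 on the opposite strand.

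Notch2 moved likewise. In Melan-A it went from 185 and 183 CPM to 166 and 168 CPM, whereas B16F0 went from 46.0 and 46.1 to 75.8 and 71.2 CPM and B16F10 from 68.1 and 67.6 to 85.7 and 86.4 CPM. The fall in Melan-A was small, at -0.14 on the log2 scale (SE 0.030, edgeR adjusted p = 0.00029), and the rises were 0.68 in B16F0 (SE 0.035, edgeR adjusted p = 3.4e-16) and 0.34 in B16F10 (SE 0.033, edgeR adjusted p = 4.0e-10). Notch4 rose in Melan-A, from 1.59 and 1.46 CPM to 2.73 and 2.54 CPM (log2 fold change 0.79, SE 0.24, edgeR adjusted p = 0.0062). It did not pass in the B16 lines, at 0.39 in B16F0 (95% interval -0.10 to 0.88, edgeR adjusted p = 0.190) and -0.59 in B16F10 (95% interval -1.29 to 0.12, edgeR adjusted p = 0.166), where the 2 libraries with SX-682 held 17 and 34 counts. Each of these rested on single libraries: without the second untreated B16F0 library the value was 0.72 (edgeR adjusted p = 0.047), and without the second SX-682 library of B16F10 it was -1.19 (edgeR adjusted p = 0.025). The 5 endothelial genes summed to 1.67 to 1.99 CPM in untreated Melan-A and 2.22 to 2.68 CPM with SX-682, to 0.120 to 0.164 and 0.729 to 1.122 CPM in B16F0, and to 0.110 to 0.149 and 0.222 to 0.330 CPM in B16F10, with Pecam1 at 0 counts in an untreated B16F10 library. Their part in the values of Notch4 was not tested.

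With SX-682, the share of Notch3 in the receptor sum per length was 50.2% ± 0.023 (SD, n = 2) in Melan-A, above that of Notch2 at 48.4% ± 0.030 (SD, n = 2), while in untreated Melan-A Notch2 had led. In B16F0 the share of Notch2 was 61.2% ± 0.59 (SD, n = 2) with SX-682 and that of Notch1 29.5% ± 0.43 (SD, n = 2). In B16F10 the share of Notch3 was 21.1% ± 0.30 (SD, n = 2) and that of Notch1 24.3% ± 0.80 (SD, n = 2). The receptor sum with SX-682 was 32.0 ± 0.16 CPM per kilobase (SD, n = 2) in Melan-A, beside 11.1 ± 0.38 for B16F0 and 14.7 ± 0.27 for B16F10, so that the B16 lines remained below Melan-A.

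Jag1 showed the largest called change of the members in B16F0, going from 28.7 and 29.2 CPM to 62.2 and 60.3 CPM, a 2.12-fold rise (log2 fold change 1.08, SE 0.045, edgeR adjusted p = 2.2e-18). In B16F10 it went from 28.6 and 27.1 to 37.1 and 39.0 CPM (0.45, SE 0.047, edgeR adjusted p = 1.8e-09), and in Melan-A it fell from 53.4 and 54.4 to 47.4 and 47.2 CPM (-0.19, SE 0.042, edgeR adjusted p = 0.00038). The level in B16F0 with SX-682, 61.3 ± 1.3 CPM (SD, n = 2), was above that of untreated Melan-A, 53.9 ± 0.72 CPM (SD, n = 2). Jag2 passed in no line. The log2 fold change of Jag2 was 0.45 in B16F10 (95% interval 0.03 to 0.88, edgeR adjusted p = 0.0704), -0.28 in B16F0 (95% interval -0.63 to 0.08, edgeR adjusted p = 0.198) and 0.29 in Melan-A (95% interval -0.12 to 0.70, edgeR adjusted p = 0.246).

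Dll1 rose in B16F10, from 29 and 29 counts to 70 and 72 counts, or from 0.480 and 0.454 CPM to 1.15 and 1.23 CPM (log2 fold change 1.35, SE 0.37, edgeR adjusted p = 0.0030). In Melan-A it had 45 and 43 counts untreated and 39 and 36 with SX-682 (log2 fold change 0.05, 95% interval -0.73 to 0.82). In B16F0 the 2 libraries with SX-682 were unalike, at 35 and 10 counts, and the log2 fold change of 0.07 had a 95% interval of -0.80 to 0.93. The difference between the changes in B16F10 and B16F0 was 1.28 on the log2 scale and did not pass (edgeR adjusted p = 0.0895), and without the B16F0 library of 35 counts it was 2.16 and passed (edgeR adjusted p = 0.0127).

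Hes1 moved little. In Melan-A it fell from 37.3 and 38.2 CPM to 35.1 and 32.1 CPM (log2 fold change -0.17, SE 0.063, edgeR adjusted p = 0.027), and in B16F0 it rose from 5.98 and 6.44 CPM to 8.24 and 6.77 CPM (0.29, SE 0.093, edgeR adjusted p = 0.00998). Both calls depended on single libraries. Without the second SX-682 library of Melan-A the value was -0.10 (edgeR adjusted p = 0.381), without either untreated Melan-A library it did not pass (edgeR adjusted p = 0.065 and 0.127), and in B16F0 it did not pass without the first SX-682 library (0.13, edgeR adjusted p = 0.418) or the first untreated one (0.24, edgeR adjusted p = 0.103). In B16F10 Hes1 had 14.6 and 15.5 CPM untreated and 14.6 and 15.1 CPM with SX-682. That log2 fold change was -0.02 with a 95% interval of -0.17 to 0.14, in the line where Notch1, Notch2, Notch3, Jag1, Dll1 and Rbpj all rose.

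Hey1 gave no call in any line. Summed over the libraries of a group it had 27 counts untreated and 37 with SX-682 in Melan-A (ratio after scaling 1.66, 95% counting interval 0.983 to 2.83), 20 and 10 in B16F0 (ratio 0.623, 0.261 to 1.40) and 4 and 7 in B16F10 (ratio 1.83, 0.465 to 8.51). A change was not detectable at this depth.

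The differences in response between the lines were then tested directly. For the mean of the B16 changes minus the Melan-A change, 35.8% of all genes tested differed (18.7% more positive and 17.1% more negative). With at least 10 counts in every library, 6484 of 12326 genes did. Of the members, 7 differed, 6 more positive and 1 more negative in the B16 lines. The more positive ones were Notch1 (0.99 on the log2 scale, edgeR adjusted p = 6.2e-08), Notch2 (0.65, 2.8e-14), Notch3 (0.52, 6.9e-08), Jag1 (0.95, 7.1e-15), Rbpj (0.61, 1.8e-12) and Hes1 (0.30, 0.0062). The call of Hes1 was lost without the second SX-682 library of Melan-A (0.23, edgeR adjusted p = 0.0793) or the first of B16F0 (0.21, edgeR adjusted p = 0.0643). Notch4 was the more negative one (-0.89, edgeR adjusted p = 0.028). Its call was lost without the second untreated Melan-A library (-0.84), the first SX-682 library of Melan-A (-0.85), the second untreated B16F0 library (-0.73), or the first untreated (-0.74) or first SX-682 library (-0.68) of B16F10. Between the B16 lines, Notch2 and Jag1 rose less in B16F10 than in B16F0 (differences of -0.33 and -0.63 on the log2 scale, edgeR adjusted p = 2.6e-06 and 7.9e-09) and Jag2 differed by 0.73 (edgeR adjusted p = 0.040), where 30.3% of all genes tested differed (15.3% higher and 14.9% lower). The call of Jag2 was lost with no filter on low counts (edgeR adjusted p = 0.0554), without either untreated B16F0 library (0.66 and 0.79), without the first SX-682 library of B16F0 (0.62), and without the first untreated (0.62) or second SX-682 library (0.60) of B16F10. Hes1 was near the threshold, at -0.31 (95% interval -0.55 to -0.06, edgeR adjusted p = 0.0510), and passed with DESeq2 (adjusted p = 0.0226), with RLE scaling (edgeR adjusted p = 0.0341) and in 4 of the 12 fits that left out 1 library: without the first untreated Melan-A library (-0.31), either SX-682 library of Melan-A (-0.31 each) or the second SX-682 library of B16F0 (-0.43). Notch4 was at -0.97 (95% interval -1.83 to -0.11, edgeR adjusted p = 0.0820) and passed without the second untreated B16F0 library (-1.30), the second untreated B16F10 library (-1.25) or the second SX-682 library of B16F10 (-1.58). Notch1 and Rbpj were not told apart between B16F10 and B16F0, with differences of -0.10 each and 95% intervals of -0.25 to 0.05 and -0.20 to 0.01.

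Other genes of the pathway were taken from a list of 62 in 8 roles, of which 61 had a row in the table and 56 were tested. With SX-682, 12 of the 56 rose and 24 fell in Melan-A, 24 rose and 19 fell in B16F0, and 18 rose and 18 fell in B16F10, where 23.4% and 24.7%, 25.1% and 25.0%, and 25.5% and 25.3% of all genes tested did. Their median log2 fold changes were -0.03, 0.03 and 0.05, beside 0 for all genes. The 7 that rose in every line were Maml1, Mib2, Neurl1a, Numbl, Dtx3, Kdm5a and Tle1, and the 10 that fell in every line were Adam10, Adam17, Rfng, Kat2b, Spen, Ctbp1, Hdac1, Hdac2, Tle4 and Ccnd1. Of all genes tested, 11.3% rose and 11.7% fell in every line. Of 10 genes for cleavage of the receptor, 3 rose and 2 fell in Melan-A, 2 rose and 4 fell in B16F0, and 2 rose and 5 fell in B16F10. The 2 ADAM proteases that make the first cut both fell in every line, by 0.25, 0.20 and 0.15 on the log2 scale for Adam10 (Melan-A, then B16F0, then B16F10) and by 0.20, 0.23 and 0.67 for Adam17 (edgeR adjusted p at most 6.0e-05 in each). Psen2, a gamma-secretase gene, fell in B16F0 and B16F10 by 0.24 and 0.63 (edgeR adjusted p = 6.5e-07 and 9.8e-16), and its log2 fold change in Melan-A was 0.09 (edgeR adjusted p = 0.0946). Aph1c, also a gamma-secretase gene, rose by 0.56 in Melan-A and fell by 0.41 in B16F0 and 0.77 in B16F10 (edgeR adjusted p = 8.0e-09, 1.6e-09 and 3.3e-15). Of the same role, Aph1b rose in Melan-A and B16F10, Psenen in Melan-A and B16F0, Ncstn in B16F0 and Furin in B16F10. Of 8 coactivators, 1 rose and 3 fell in Melan-A, 5 rose and 1 fell in B16F0, and 3 rose and 1 fell in B16F10. Maml1, a Mastermind coactivator, rose by 0.75 in B16F0, 0.40 in Melan-A and 0.39 in B16F10 (edgeR adjusted p at most 7.0e-09). Of the other Mastermind genes, Maml2 rose in B16F0 alone, by 0.25 (edgeR adjusted p = 0.00025), and Maml3 passed in no line.

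Of the list, Mib2, an E3 ligase that ubiquitinates Notch ligands, was the 1 gene that rose by at least 0.5 on the log2 scale in every line. In Melan-A it went from 39.6 ± 1.1 to 67.7 ± 0.76 CPM (SD, n = 2 in each group), with B16F0 going from 40.4 ± 0.56 to 57.2 ± 0.96 CPM and B16F10 from 28.0 ± 0.58 to 52.4 ± 0.65 CPM, at log2 fold changes of 0.77, 0.50 and 0.90 (edgeR adjusted p = 4.6e-16, 1.7e-11 and 6.7e-17). Neurl1a, another such ligase, rose by 0.30, 0.32 and 0.85 in the same order of lines (edgeR adjusted p = 0.020, 0.026 and 2.6e-06). It shares 9.47% of its exonic bases with AC132288.2 on the same strand. Mib1, also a ligase of this role, fell by 0.25 in Melan-A and in B16F10 (edgeR adjusted p = 3.1e-06 and 4.5e-06). Its log2 fold change in B16F0 was -0.01 (edgeR adjusted p = 0.866). Neurl1b had the split that Notch1, Notch2 and Jag1 had: it fell by 0.995 on the log2 scale in Melan-A, from 27.0 ± 1.2 to 13.5 ± 0.60 CPM (SD, n = 2), and rose by 0.61 in B16F0 and 0.34 in B16F10 (edgeR adjusted p = 5.7e-13, 1.6e-06 and 0.00050). Lfng, the Fringe enzyme that extends sugars on NOTCH and alters which ligands it answers to, fell by 1.11 in Melan-A, from 13.96 ± 0.83 to 6.46 ± 0.045 CPM (SD, n = 2; edgeR adjusted p = 5.5e-09), and by 0.47 in B16F0 (edgeR adjusted p = 0.019). In B16F10 it was at most 0.407 CPM, and its log2 fold change was -0.62 (edgeR adjusted p = 0.168).

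Among the other HES and HEY genes and NOTCH targets, Ccnd1 (cyclin D1) fell by 1.11 on the log2 scale in B16F10, 0.79 in B16F0 and 0.56 in Melan-A (edgeR adjusted p = 9.2e-26, 1.5e-21 and 1.2e-18). It shares 23.4% of its exonic bases with LTO1 on the opposite strand. Hes6 fell in B16F10 by 0.45 (edgeR adjusted p = 2.8e-08). Myc rose by 0.59 in Melan-A and fell by 0.11 in B16F0 and 0.48 in B16F10 (edgeR adjusted p = 2.1e-14, 0.020 and 2.7e-12). Hes7, with 3 to 138 counts per library, rose by 1.03 in B16F0 and 1.73 in B16F10 (edgeR adjusted p = 0.020 and 0.043). Of the 5 genes of this role tested, 1 rose and 1 fell in Melan-A. In B16F0 1 rose and 2 fell, and in B16F10 1 rose and 3 fell, beside the shares of all genes given above. Nrarp, a direct target that feeds back on NOTCH, had 0 or 1 count in every library, and Heyl had at most 5, so neither could serve as a second readout beside Hes1. Hes5 had no row in the table used here.

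Among the corepressors, which hold RBPJ targets off in the absence of NOTCH, 9 of 12 fell and 2 rose in Melan-A, 6 fell and 6 rose in B16F0, and 6 fell and 5 rose in B16F10, beside the shares of all genes given above. Tle2 fell by 0.81 in B16F0 and rose by 0.80 in B16F10, at levels between 0.459 and 1.24 CPM in the untreated B16 groups (edgeR adjusted p = 0.0040 and 0.013). The largest fitted changes among the listed genes with a mean log2 CPM of at least 1 came from few counts. They were those of the Deltex genes Dtx1 and Dtx4 in B16F0. Under that level, Dner rose by 5.51 on the log2 scale in B16F0 (edgeR adjusted p = 0.0075), with at most 84 counts in any library. Dtx1 had 6 counts over both untreated B16F0 libraries and 42 with SX-682 (ratio after scaling 8.73, 95% counting interval 3.69 to 25.1). The 2 libraries with SX-682 were unalike, at 31 and 11 counts. In untreated Melan-A Dtx1 had 8.89 ± 0.99 CPM (SD, n = 2). Dtx4 had 22 counts in untreated B16F0 (5 and 17) and 67 with SX-682 (41 and 26), a ratio of 3.80 (2.32 to 6.46). These intervals leave out the spread between libraries.

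**Figure D4:**
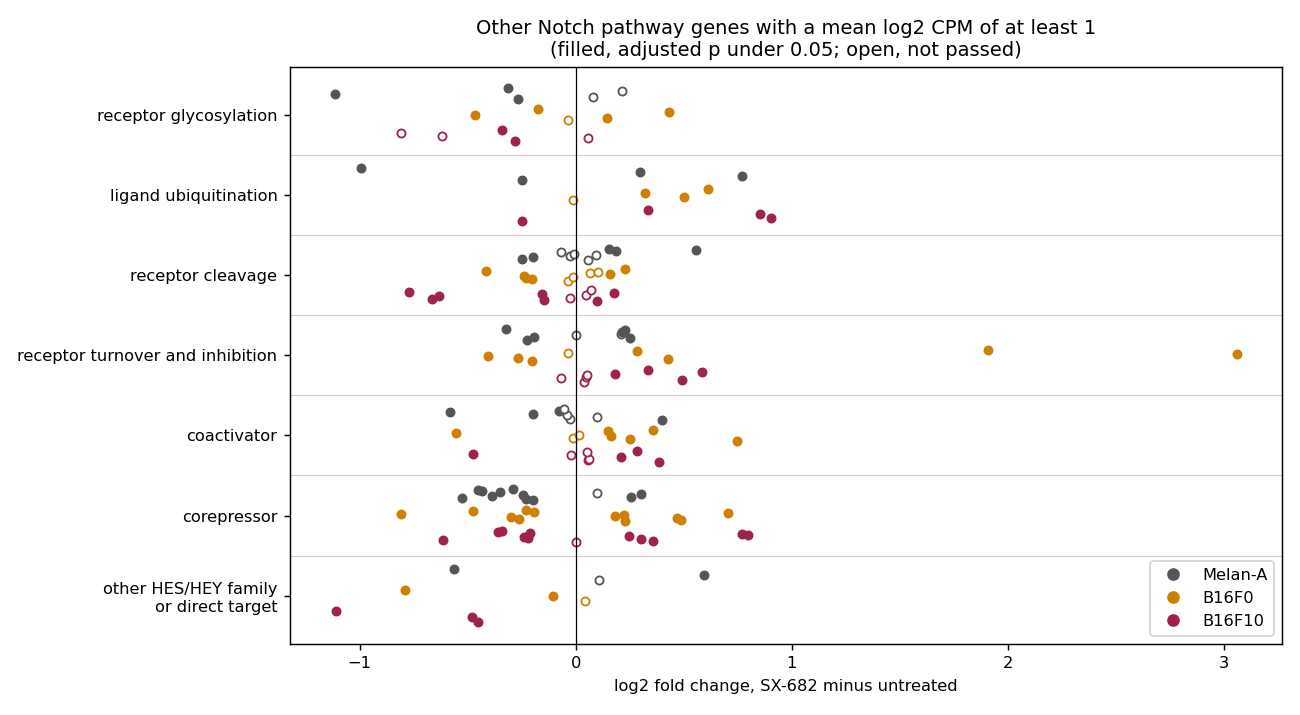
Log2 fold change of SX-682 against untreated libraries (horizontal axis) for the 50 other pathway genes with a mean log2 CPM of at least 1, in rows by role, for Melan-A (gray), B16F0 (orange) and B16F10 (red); filled points have an edgeR adjusted p under 0.05. Most points lie between -1 and 1, and the 2 B16F0 points far to the right are Dtx4 and Dtx1, which had few counts there.

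Over the 12 libraries, and among 11679 genes with a mean log2 CPM of at least 1, the genes whose log2 CPM was most like that of Notch1 were Pqlc3, Il17ra and Daam2 (Pearson's r = 0.999, 0.998 and 0.998). Those most like Hes1 were Zik1, March6 and Fam129b (0.995, 0.994 and 0.993). The libraries fall into 3 lines, which set most of these values, and they are given as a description.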

How the data were processed

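RNA of 3 mouse lines, each untreated and with SX-682, was sequenced with 2 libraries per group. The authors deposited raw counts per gene, without normalization, on mm10 (GRCm38) coordinates. The submitters' processing notes name cutadapt, STAR and DESeq2 without versions; the counting program and its strand setting are not given in the sources used here. Library columns were matched by name, and groups and replicate numbers come from the sample titles. Gene lengths in the table equal the exonic bases of GENCODE M21 for the 10 members, and their coordinates match.

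Counts were analysed in R 4.3.3 with edgeR 4.0.16: TMM scaling, edgeR's expression filter (minimum count 10), a quasi-likelihood F-test with a mean per group, no block, and Benjamini-Hochberg adjustment over 18338 genes. Residual degrees of freedom were 6 and prior degrees of freedom 21.9. Each SE is the absolute log2 value over the root of F. The fit was tested on simulated counts. Depth was 48876982 to 85322092 counts per library, and count intervals (95%) cover counting error alone. Replicates differed by more than sampling noise (chi-square per gene 2.87 to 5.25) and were each counted.

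The members and gene lists were chosen with earlier results of these data known. Other pathway genes are named if they changed in the same direction in all 3 lines by at least 0.5 on the log2 scale, or were among the 3 largest called changes in a line with a mean log2 CPM of at least 1. The further ones (Adam10, Adam17, Psen2, Aph1c, Aph1b, Psenen, Ncstn, Furin, Maml1, Maml2, Maml3, Mib1, Hes6, Hes7, Myc, Dner, Nrarp, Heyl, Hes5 and the lists of genes called in every line) were chosen after their values were seen. Alternatives were DESeq2 1.42.0, RLE scaling, library totals, other filters, separate fits, the replicate number as a block, each library left out, stricter thresholds and a prior count of 2. Some items of the pathway list are not reported here.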

Additional observations from a re-analysis of the deposited data

Results flagged for a closer look

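The response to SX-682 differed between cell lines for 7 of the 10 genes by an F-test over the 3 lines. Of all genes tested, 47.4% differed. With at least 10 counts in every library, 8285 of 12326 genes did, and Dll1 and Jag2 passed as well. The range of the log2 fold change over the lines was 1.04 for Notch1, 0.81 for Notch2, 0.59 for Notch3, 1.38 for Notch4, 1.27 for Jag1, 0.65 for Rbpj and 0.46 for Hes1 (edgeR adjusted p from 1.1e-15 for Jag1 to 0.024 for Notch4). By the contrast of the mean B16 change with the Melan-A change, the same genes stood out, with differences of 0.99 for Notch1, 0.65 for Notch2, 0.52 for Notch3, -0.89 for Notch4, 0.95 for Jag1, 0.61 for Rbpj and 0.30 for Hes1. Between B16F10 and B16F0, the difference was -0.33 for Notch2, -0.63 for Jag1 and 0.73 for Jag2. The result over the 3 lines was lost for Notch4 without the first untreated (1.07, edgeR adjusted p = 0.170) or first SX-682 library (0.96, 0.161) of B16F10, and for Hes1 without the first SX-682 library of B16F0 (0.29, 0.133). No group had enough libraries for a test of single outlying values.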

How the results depend on the processing

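No value of a member changed sign with a call under any alternative run. When calls also needed a change of 0.5 or more on the log2 scale, 2 members and 9 genes of the wider pathway list were called in Melan-A, 4 and 12 in B16F0, and 3 and 11 in B16F10, where 16.3%, 19.4% and 21.5% of all genes tested were. With at least 10 counts in every library, 5 members differed in response between B16F10 and B16F0, Dll1 and Hes1 being added. Of the 12326 genes tested with that filter, 5547 differed. With 1 library left out in turn, the members called were 6 to 7 in Melan-A and in B16F10 and 5 to 7 in B16F0, 7 to 8, 7 to 8 and 6 to 7 in the untreated comparisons of B16F0 with Melan-A, B16F10 with Melan-A and B16F10 with B16F0, 6 to 7 for the B16 lines against Melan-A, 2 to 4 for B16F10 against B16F0, and 6 to 8 over the 3 lines. The pathway list gave 35 to 43 calls in B16F0, 32 to 36 in B16F10 and 32 to 37 in Melan-A. The cause of these changes was not tested beyond the fewer libraries or genes used. Same-numbered libraries did not deviate together (correlation across genes 0.0142 in B16F0, -0.0385 in B16F10 and -0.0625 in Melan-A); blocking on the number gave 6 called members in each B16 line and 7 in Melan-A, and with this replicate block 1 call of a member was lost (Hey1, untreated B16F10 against Melan-A, adjusted p = 0.058) and 1 gained (Jag2 over the lines, 0.048). Library totals in place of TMM moved the median log2 difference of all genes by -0.19 for untreated B16F10 minus Melan-A. Hey1 was not tested with at least 10 counts in every library. The depth limits Hey1, Dll1 and Notch4, with at most 195 counts in any library.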
